A study of Mus musculus with 5 samples.

Results

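The cells described here were Postn and Prrx1 positive cells named for the perichondrium, the fibrous sheath around the growth plate. The name comes from the rule that selected them, and 4898 of 82516 cells kept (5.94%) met the rule. A cell was kept when it had 200 to 6000 detected genes and at most 10% mitochondrial UMIs. A UMI (unique molecular identifier) is a molecular tag that lets PCR copies of 1 transcript be counted once. Levels in single cells were expressed as k, the UMIs of a gene per 10000 UMIs of the cell. Members were selected on their own transcripts, with Col1a1 k of at least 200, Col3a1 k of at least 50, Postn k of at least 10 and at least 1 Prrx1 UMI. They also had to have 0 UMIs of Tnmd, Ptprc and Pecam1, Ibsp k under 10, Col2a1 k under 200 and Prg4 k under 50. Since these 10 genes chose the members, their values are descriptions and were not tested.

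The study compared growth plate cells from 5 littermate pups, 2 WT and 3 mutant. The labels give the strain as C57BL/6J, and the Cre line had been made on a mixed background with SJL and then bred to C57BL/6J. Mutant pups were heterozygous for a conditional knock-in allele of the calcium channel gene Trpv4 (p.R594H), recombined by a Cre transgene under the Col2a1 promoter. Whether the WT pups carried the Cre transgene or the unrecombined allele was not given in the sources used here. The sample labels give the age as postnatal day 5 and the series design text gives it as day 3. Femoral and tibial growth plates were cleaned of surrounding tissue with Collagenase I and then digested with Collagenase II. Where the members lay in the tissue was not measured. Cells with tendon and ligament transcripts remained in the same preparations (11570 of the cells kept, gated as given below). Each pup gave 1 library on the BD Rhapsody HT Express system, which isolates cells in microwells with barcoded beads. The labels name the cells chondrocytes, but the Col2a1 limit of the rule removed cells with the chondrocyte level of type II collagen. The Cre transgene is driven by Col2a1, and the counts cannot show in which members the Trpv4 allele had recombined.

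The perichondrium has an outer fibrous layer of type I and type III collagen and an inner layer of progenitors next to the cartilage, from which bone-forming cells arise beside the hypertrophic zone. Postn encodes periostin, a matricellular protein that binds collagen and fibronectin, and Prrx1 encodes a homeobox factor of limb mesenchyme. Eln encodes tropoelastin, the core of elastic fibres. Fibroblast progenitors of many tissues express Cd34 and Ly6a, while Runx2 and Sp7 are the transcription factors of osteoblast commitment and Alpl encodes the phosphatase that frees phosphate for mineral.

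The members held 34959370 UMIs in all, between 3227496 and 12139132 per pup. Their median depth was 7175 and 7344.5 UMIs in the WT pups and 6547, 4933.5 and 6024 UMIs in the mutant pups, so every mutant pup was below both WT pups. The files held 14003 to 19589 cells and 117746735 to 183322632 UMIs per pup. Across the 5 files 56 cell barcodes occurred in more than 1 file, and 0 of them belonged to members of more than 1 pup. Xist, the transcript of the inactive X chromosome in females, had a UMI in 89.0% and 86.0% of members of mutant pups 1 and 2 and in 0.17%, 0% and 0.21% of members of WT pup 1, WT pup 2 and mutant pup 3. The Y-linked gene Ddx3y had the opposite distribution, at 54.9% and 57.6% of members in the WT pups, 0.47% and 0.25% in mutant pups 1 and 2 and 47.8% in mutant pup 3. Both WT pups were therefore on the side without Xist, which mutant pup 3 shared.

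The medians of the genes used for selection overlapped between WT and mutant pups. Median Postn k was 26.5 and 35.6 in the WT pups and 31.7, 28.6 and 24.1 in the mutant pups, and the genotypes overlapped. Median Col3a1 k, for the type III collagen of loose fibrous tissue, was 132 and 171 in WT and 162, 152 and 139 in mutant pups. Median Prrx1 k was 3.13 and 3.86 in WT and 3.74, 3.53 and 3.96 in mutant pups. Col1a1, the main chain of type I collagen, had a median k of 697 and 534 in WT and 646, 761 and 736 in mutant pups.

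Eln, the marker that the rule did not use, was present in a majority of members but at very unequal levels. An Eln UMI was found in 65.2% and 65.4% of members in the WT pups and in 66.4%, 59.3% and 58.5% in the mutant pups. Its median k was only 1.76 to 2.23 across the pups, whereas the highest member of each pup lay between k 199.9 and 445.6. Thinned to 3000 UMIs a cell, 50.9% of members and 6.90% of macrophages had an Eln UMI. Macrophages do not make elastin, so their share stands for free RNA and doublets, and the median depth of macrophages was 6554.5 to 10771 UMIs per pup.

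**Figure D1:**
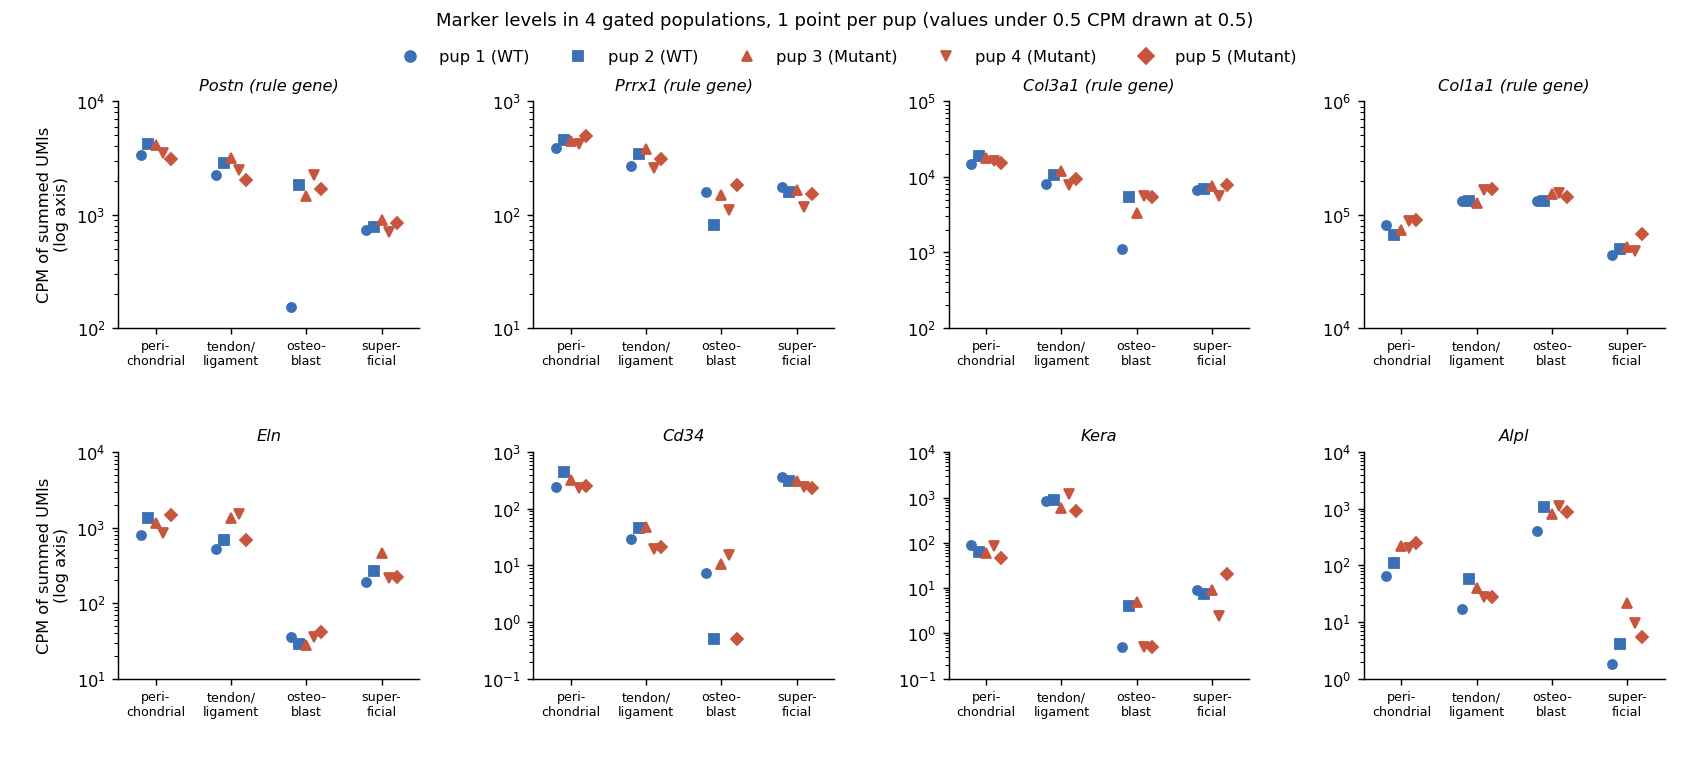
Levels of the marker genes in counts summed per pup, in CPM (UMIs of the gene scaled by all UMIs of the sum) on a log axis, for the perichondrial members and 3 other populations gated from the same pups. Each point is 1 pup; in all figures pups 1 and 2 are the WT pups and pups 3, 4 and 5 are mutant pups 1, 2 and 3 of the text. Eln was 799 to 1475 CPM in members and 28 to 41 CPM in osteoblast lineage cells.

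The rule cut through a continuum at several of its limits. Of all cells kept, 6453 failed the Tnmd limit alone, and these had a median Tnmd k of 17.8. Tnmd encodes tenomodulin, a membrane glycoprotein of tendon. A further 1695 cells failed only at Postn, with a median k of 5.07 against the limit of 10. Another 1668 cells lacked only a Prrx1 UMI, and Prrx1 was held at few UMIs per cell in members too. The Col1a1 limit alone removed 397 cells with a median k of 158, the Col2a1 limit 260 cells with a median k of 517, and the Col3a1 limit 171 cells with a median k of 40.8. Fewer cells failed at Prg4 (76), Pecam1 (65), Ibsp (57) or Ptprc (26) alone. Within the rule, an Ibsp UMI remained in 0.505% to 5.80% of members per pup.

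Markers of immune, endothelial, muscle and nerve cells were low in members, and lists of neighbouring skeletal tissues summed higher. The tendon and ligament list of 11 genes summed to 2898 to 5661 CPM per pup, the cartilage matrix list of 23 genes to 3632 to 5496 CPM and the osteoblast lineage list of 17 genes to 358 to 1055 CPM. In macrophages these lists summed to 453 to 752 CPM, 3625 to 6645 CPM and 515 to 969 CPM per pup. Only the tendon list lay above the macrophages in every pup. The osteoblast list holds Spp1, which macrophages can express. The macrophage list of 10 genes summed to 5.0 to 19.9 CPM per pup, the endothelial list of 8 genes to 3.4 to 11.0 CPM and the skeletal muscle list of 9 genes to 4.3 to 10.5 CPM. The Schwann cell list summed to 23.8 to 36.8 CPM and the neutrophil list to 0.23 to 6.9 CPM. Pericyte markers, which mark cells on small vessels, summed to 255 and 245 CPM in WT and to 180, 157 and 135 CPM in mutant pups. Hemoglobin transcripts summed to 22.4 and 1055 CPM in WT and to 585, 85.1 and 49.6 CPM in mutant pups, so WT pups 1 and 2 were at opposite ends. Col2a1, limited by the rule in members but not in the other cells, was at 961 to 1590 CPM in members. It was at 4604 to 10661 CPM in macrophages and 6373 to 15565 CPM in endothelial cells of the same pups.

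The genes that varied most among members included immediate early genes, Mt2, H19, Igfbp5, Eln and collagen genes. The variance of Pearson residuals, which removes the part set by depth, was ranked within each pup over 8738 genes, and the 20 genes with the highest median were within rank 32 in every pup. They were Fos, Mt2, Zfp36, H19, Igfbp5, Eln, Egr1, Col1a1, Igf1, Jun, Col1a2, Zfp36l1, Cxcl1, Tmsb4x, Fosb, Col2a1, Fmod, Tnfaip6, Dlk1 and Thbs4, with median residual variances from 42.1 for Fos to 15.5 for Thbs4. Fos, Fosb, Egr1 and Jun are immediate early transcription factors that tissue digestion also induces. Mt2, a metallothionein, had a UMI in 51.1% of members, and Eln had one in 64.0%. Igf1, Dlk1 and H19 belong to growth factor and imprinted growth pathways, and Fmod and Thbs4 encode matrix proteins of tendon and other dense connective tissue. The dissociation response list, which holds Fos, Egr1, Jun and Zfp36, summed to 19152 and 31209 CPM in WT and to 22221, 18903 and 21294 CPM in mutant pups.

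Genes of fibroblast, osteoblast, matrix and other programmes, some of them among these 20, were then compared in pairs from cell to cell. These genes were chosen after their values were seen, so the sets below in part follow from that choice and are descriptions. Correlations are given as the median over 5 pups of Pearson's r between residuals of single cells, which share a library and free RNA. The first set joined fibroblast genes. Cd34 and Clec3b, the gene of tetranectin, had r of 0.63, and Ly6a and Cd34 had r of 0.61. The second set joined osteoblast genes. Alpl correlated with Sp7 at 0.57 (0.45 to 0.64 over pups), with Tnn at 0.50, with Runx2 at 0.49 and with Npnt at 0.48. Npnt encodes nephronectin, an integrin ligand of basement membranes, and Tnn encodes tenascin W, found in developing bone. The third set joined Fmod with Acan at 0.61 and with Wif1, a secreted Wnt inhibitor, at 0.55. Pairs across sets ranged from negative to positive, with r of -0.40 between Igf1 and Fmod, of -0.32 between Alpl and Dlk1 and of -0.26 between Alpl and Cd34. Alpl had r of -0.09 with Fmod and 0.02 with Acan, while Tnn had r of 0.33 with Acan (0.28 to 0.39 over pups) and 0.14 with Fmod. Igf1 went with Cxcl12, a chemokine of stromal progenitors, at 0.56. Eln was close to unrelated to Alpl, with r of -0.06. Fos with Egr1 (0.74) and Mki67 with Top2a (0.75) formed the immediate early and the proliferation pairs.

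**Figure D2:**
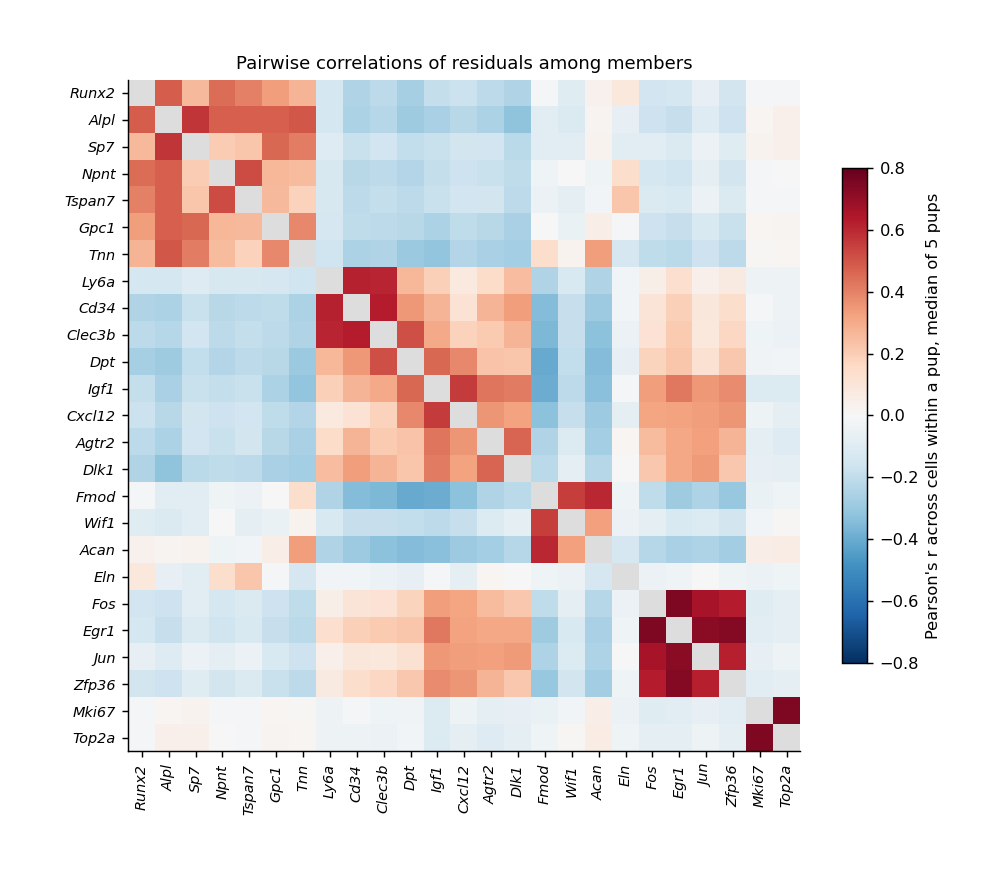
Median over 5 pups of the within-pup correlation of Pearson residuals between genes across perichondrial members, shown by colour. The genes were chosen after their values were seen. Alpl, Sp7, Runx2, Tnn, Npnt and Tspan7 form 1 block of positive values, and Ly6a, Cd34 and Clec3b form another.

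The same members and genes were also described by detection in cells thinned to 3000 UMIs, which is not an independent observation. At that depth, 708 members had an Alpl UMI and 4052 had none. Sp7 was detected in 28.2% of members with Alpl and in 1.16% of those without, and Runx2 in 55.4% and 10.3%. Npnt was detected in 60.7% and 6.98%, Tnn in 75% and 17.7%, and Spp1, the gene of osteopontin, in 25.8% and 2.86%. The share was higher beside Alpl in 5 of 5 pups for each of these genes. The fibroblast genes Cd34, Clec3b and Ly6a had the opposite distribution in 5 of 5 pups. Cd34 was in 3.67% of members with Alpl and 46.8% of those without, Clec3b in 2.68% and 44.3% and Ly6a in 2.40% and 20.8%. Other genes of the progenitor list were not compared in this way. Mki67, a marker of cycling cells, was in 12.6% and 8.46%, higher beside Alpl in 4 of 5 pups.

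A Ly6a UMI was found in 859 members. Among them Clec3b was detected in 88.0%, Cd34 in 84.7% and Dpt in 82.4%, against 27.1%, 30.7% and 38.8% of the 3901 members without Ly6a. Dpt encodes dermatopontin, a matrix protein of dermal and other fibroblasts. Fmod, the gene of fibromodulin, was less frequent in them, at 19.4% and 65.5%, as were Npnt at 2.56% and 17.7% and Alpl at 1.98% and 17.7%. Eln did not follow this division, with 53.1% and 50.4%. As a measure of free RNA, Cd34 was found in 40.4% of all members and 1.26% of 478 macrophages at the same depth, Clec3b in 38.1% and 1.05%, Ly6a in 18.0% and 0.42%, and Alpl in 14.9% and 0.84%. Runx2 was found in 17.0% and 7.11%, and Tnn in 26.3% and 4.60%. For Spp1, in 6.28% and 11.9%, and Runx3, in 4.37% and 8.996%, the macrophage share is no measure of free RNA, since macrophages can express both genes.

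**Figure D3:**
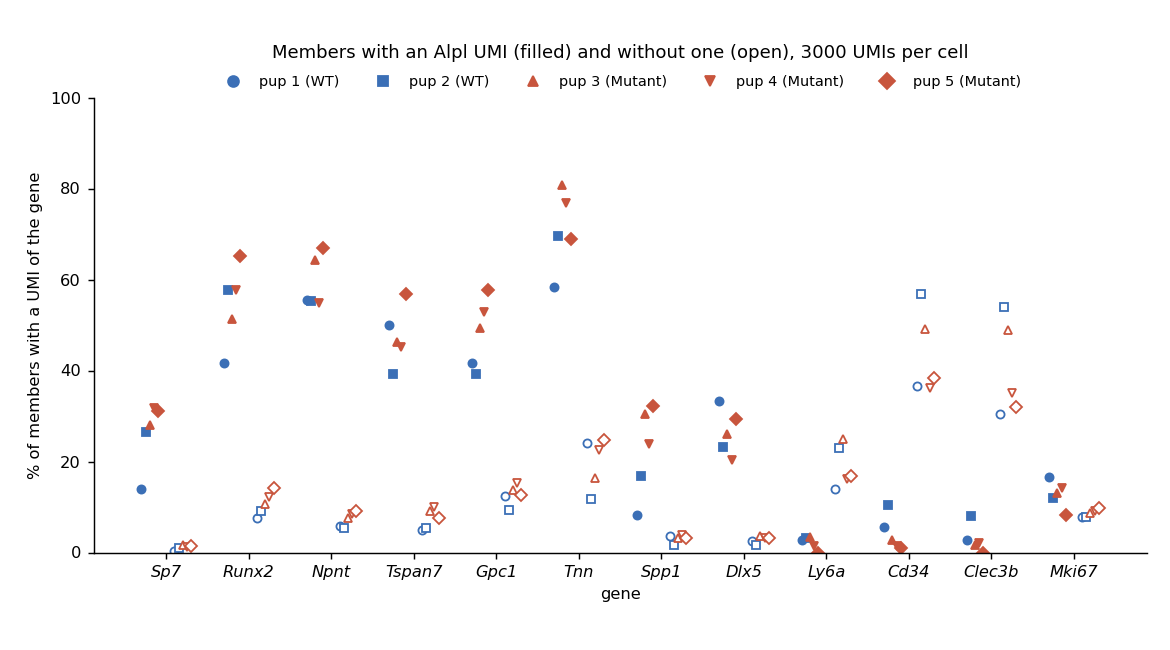
Share of perichondrial members, in percent, with a UMI of each gene among members with (filled) and without (open) an Alpl UMI, at 3000 UMIs a cell. Each point is 1 pup. Npnt, Tnn, Runx2 and Sp7 lie higher beside Alpl in all 5 pups, and Cd34, Clec3b and Ly6a lie lower.

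Compared with tendon and ligament cells of the same pups, members were lower in a majority of tendon genes and higher in some osteoblast genes. Single fibroblast genes such as Ly6a, Clec3b and Cd34 had wide differences upward. Tendon and ligament cells (11570 cells) were those with Tnmd k of at least 5 and Col1a1 k of at least 200. The populations were separated on Tnmd, Ibsp and Prg4, and only members had to reach the Postn, Col3a1 and Prrx1 limits. Genes that vary with any of these had in part to follow, and the genes of the rule are left out of the counts. Counts were summed per pup and population and compared with edgeR's quasi-likelihood test with the pup as a block. With an adjusted p under 0.05 and a log2 difference of at least 1 in size, 629 of 13980 genes (4.5%) were higher in members and 420 (3%) were lower. Fewer cells expressing a gene and less RNA per cell cannot be told apart in these sums. Ly6a was higher by a log2 of 4.39 ± 0.20 (SE, n = 5 pups), at 149 against 6.97 CPM. Clec3b was higher by 3.55 ± 0.24, at 324 against 29.2 CPM. Cd34 was higher by 2.94 and Dpt by 2.82, and Ly6c1, Col6a6, Mmp13, Il6, Has1 and Col5a3 completed the 10 largest. That ranking covers genes of at least 50 CPM in members and higher in all 5 pups. Kera, the gene of the proteoglycan keratocan, was lower by a log2 of 3.80, at 62.2 against 890 CPM. Mkx, a homeobox factor of tendon, was lower by 2.18, and Chst5, Col11a2, Sema3b, Cilp2, Chad, Enpp2, C1qtnf3 and Mfap4 followed in the named 10.

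By list, 8 of 11 tendon and ligament genes were lower and 0 were higher, with a median of -1.67 against 0.00 over all genes tested. Scx, the tendon transcription factor, differed by -1.97, Fmod by -1.67 and Thbs4 by -1.41. Of 15 osteoblast lineage genes 6 were higher and 0 lower, Sp7 by 2.71 and Alpl by 1.99, while Runx2 differed by 0.16 and missed the threshold (adjusted p = 0.681, edgeR). Progenitor markers as a list had a median of 0.07, near that of all genes. Of 18, 4 were higher, among them Pi16 by 3.85 and Cxcl12 by 2.29, and 2 were lower, Grem1 by -1.55 and Ctsk by -1.04. The fibrous perichondrium markers did little to separate members from tendon cells, with 3 of 16 higher, 2 lower and a median of 0.20. They summed to 56260 CPM in members and 95287 CPM in tendon cells. Against osteoblast lineage cells 12 were higher and 1 lower, and against superficial and synovial cells 8 and 0. Elastic fibre genes were split, with 4 of 21 higher and 1 lower than in tendon cells. Mfap5, a microfibril protein, was higher by 2.75, but Eln differed by only 0.06 ± 0.38. Eln in members was 799 and 1343 CPM in WT and 1150, 856 and 1475 CPM in mutant pups, and in tendon cells 522 and 684 CPM and 1333, 1539 and 682 CPM, so the populations overlapped. Of 19 matricellular genes 3 were higher, Tnxb by 2.76 and Vcan, the gene of versican, by 1.85 among them, and 3 were lower. Of 29 Wnt genes 6 were higher, Sfrp4 by 3.79 being one, and 2 were lower, Wif1 by -1.79 being one. Retinoid genes went both ways, 3 of 15 higher and 4 lower, with the synthetic enzyme Aldh1a2 at 3.19 and the degrading enzyme Cyp26b1 at -1.32. Of 23 cartilage matrix genes 0 were higher and 5 lower. Pericyte markers were higher for 3 of 5, and their part in the other differences was not tested.

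Against osteoblast lineage cells, members were higher in fibroblast and elastic fibre genes and lower in bone genes. Osteoblast lineage cells were those with Ibsp k of at least 10, 244 cells in all and only 8 in WT pup 1. Of 11594 genes 1735 (15%) were higher in members and 847 (7.31%) were lower under the same thresholds. Eln was higher by a log2 of 4.91 ± 0.22, at 1054 against 36.1 CPM, and Fbln5, a fibulin that anchors elastin, by 5.58. In all, 15 of 21 elastic fibre genes were higher and 2 lower, one of them Lox, the crosslinking enzyme, by -1.79. The median of that list was 2.05 against 0.10 over all genes tested. Igf1 was higher by 6.45, at 1990 against 30.4 CPM, and Igfbp3, Clec3b, Agtr2 and Dpt were among the 10 largest of at least 50 CPM. Of 17 osteoblast lineage genes 17 were lower, with Spp1 at 135 against 3990 CPM, Alpl at 159 against 938 CPM and Runx2 at 110 against 333 CPM. The osteocyte gene Dmp1 was at 0.326 against 1009 CPM. Of 23 collagen folding and processing genes, which modify and secrete collagen chains, 2 were higher and 9 lower.

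Against superficial and synovial cells, 694 cells with Prg4 k of at least 50, members were lower in cartilage genes and higher in osteoblast and elastic fibre genes. Of 11114 genes 869 (7.82%) were higher and 495 (4.45%) were lower. Of 23 cartilage matrix genes 16 were lower and 0 higher, with a median of -1.26 against 0.03 over all genes. Sox9, the master factor of cartilage, was lower by a log2 of 1.80, at 341 against 1178 CPM. Cytl1 was lower by 5.95, at 13.1 against 795 CPM, and Cilp, a protein of the intermediate cartilage layer, by 3.27. Eln was higher by 2.14, Lox by 2.59 and Mfap5 by 4.60 within an elastic fibre list of 11 higher and 1 lower of 21. Alpl was higher by 4.21, at 176 against 8.34 CPM, and 10 of 14 osteoblast genes were higher and 2 lower. Mmp13, the collagenase of hypertrophic cartilage and bone, was higher by 6.84, at 198 ± 162 (SD, n = 5) against 1.24 CPM. Of 19 dissociation response genes 14 were higher and 0 lower, and 5 of 5 hemoglobin genes were higher. Their part in the other differences was not tested.

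Members made up 3.93% and 7.98% of the cells kept in the WT pups and 8.83%, 4.51% and 3.53% in the mutant pups. The genotypes overlapped, with 5.96% ± 2.87 (SD, n = 2) in WT and 5.62% ± 2.82 (SD, n = 3) in mutant pups. The difference of -0.336 percentage points had p = 0.9 in a 2-sided exact permutation test over the 10 placements of 5 pups, which cannot give a p below 0.1. Either genotype included pups with a low and a high share.

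Mutant and WT members differed in few genes at the level the 5 pups could resolve. Of 11867 genes tested with edgeR's quasi-likelihood test on sums per pup, 3 (0.0253%) were higher in mutant members at an adjusted p under 0.05 and 0 (0%) were lower. At an unadjusted p under 0.05, 567 genes (4.78%) were higher and 382 (3.22%) lower. DESeq2 called 45 genes higher (0.322% of 13964) and 1 lower (0.00716%). The median log2 difference over all genes tested was -0.02. The Trpv4 transcript itself was at 14.4 and 8.79 CPM in WT and 9.99, 9.63 and 16.7 CPM in mutant members, with overlap and a log2 difference of 0.06. Trpv4 had a UMI in 3.17% of members and 4.39% of macrophages at 3000 UMIs, so its detection was not above the macrophage share. Its counts do not separate the knock-in allele from the WT allele and check neither label.

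The 3 genes were Npnt, Tspan7 and Gpc1. Npnt was at 72.3 and 78.5 CPM in WT and at 169, 184 and 223 CPM in mutant members. Its log2 difference was 1.34 ± 0.14 (SE; 95% interval 1.03 to 1.66; edgeR adjusted p = 0.0218). All 3 mutant pups were above both WT pups by more than the spread within either group. Tspan7, a tetraspanin of the cell membrane, was at 44.3 and 43.4 CPM in WT and at 88.9, 92.5 and 107 CPM in mutant members, a difference of 1.13 ± 0.13 (edgeR adjusted p = 0.0218). Gpc1, the glypican 1 core protein of heparan sulfate at the cell surface, was at 61.1 and 55.4 CPM in WT and at 112, 116 and 118 CPM in mutant members, a difference of 0.99 ± 0.11 (edgeR adjusted p = 0.0218). Mutant pup 3, which like the WT pups had almost no Xist, had the highest level of each of the 3 genes. With the presence of Xist as a term, the genotype difference rests on mutant pup 3 alone against the 2 WT pups. It was then 1.56 for Npnt, 1.28 for Tspan7 and 1.02 for Gpc1, and no test of 3 mutant pups free of Xist was possible. Without mutant pup 1 no gene passed, with differences of 1.43 for Npnt, 1.18 for Tspan7 and 1.01 for Gpc1. Without mutant pup 2 no gene passed either, with differences of 1.39, 1.16 and 1.00 for Npnt, Tspan7 and Gpc1.

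In GRCm38 with GENCODE M21, Npnt lies on the minus strand at chr3:132881745-132950291, Tspan7 on the plus strand at chrX:10485158-10596605 and Gpc1 on the plus strand at chr1:92831645-92860779. The promoters of Npnt and Tspan7, the called genes matched in RefSeq (GRCm38.p6), are shown beside that of Spp1, the osteoblast gene with the widest difference below. Each runs 5′ to 3′ on the strand of the gene from 250 bases before to 50 bases after the start. Capitals mark the RUNX core letters TGTGGT or, on the other strand, ACCACA. The windows are chr3:132950242-132950541 on the minus strand, chrX:10484866-10485165 on the plus strand and chr5:104434861-104435160 on the plus strand.
Npnt: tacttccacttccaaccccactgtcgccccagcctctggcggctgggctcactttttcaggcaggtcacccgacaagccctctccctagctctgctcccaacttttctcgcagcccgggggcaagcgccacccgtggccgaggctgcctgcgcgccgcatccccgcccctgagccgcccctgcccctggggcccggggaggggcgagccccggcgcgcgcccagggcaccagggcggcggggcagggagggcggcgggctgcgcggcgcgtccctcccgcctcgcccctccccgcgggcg
Tspan7: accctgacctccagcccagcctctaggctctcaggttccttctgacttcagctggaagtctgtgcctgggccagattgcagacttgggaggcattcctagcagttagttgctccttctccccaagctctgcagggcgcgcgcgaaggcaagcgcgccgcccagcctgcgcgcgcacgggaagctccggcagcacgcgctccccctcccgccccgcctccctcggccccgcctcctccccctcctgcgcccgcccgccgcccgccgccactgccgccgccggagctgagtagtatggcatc
Spp1: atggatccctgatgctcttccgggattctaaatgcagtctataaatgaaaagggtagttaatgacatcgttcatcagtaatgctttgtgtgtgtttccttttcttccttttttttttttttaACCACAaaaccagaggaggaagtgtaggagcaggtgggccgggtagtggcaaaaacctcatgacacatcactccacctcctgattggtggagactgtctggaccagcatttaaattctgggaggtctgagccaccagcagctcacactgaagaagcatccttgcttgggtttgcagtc
The letters occur 1 time in the Spp1 window and 0 times in the others. Across RefSeq, 5506 of 32851 windows of this length (16.8%) hold them on either strand. Of the 15 osteoblast lineage genes tested, 9 matched with 13 windows, of which 3 hold them (23.1%). A match of letters is a description and no record of binding.

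**Figure D4:**
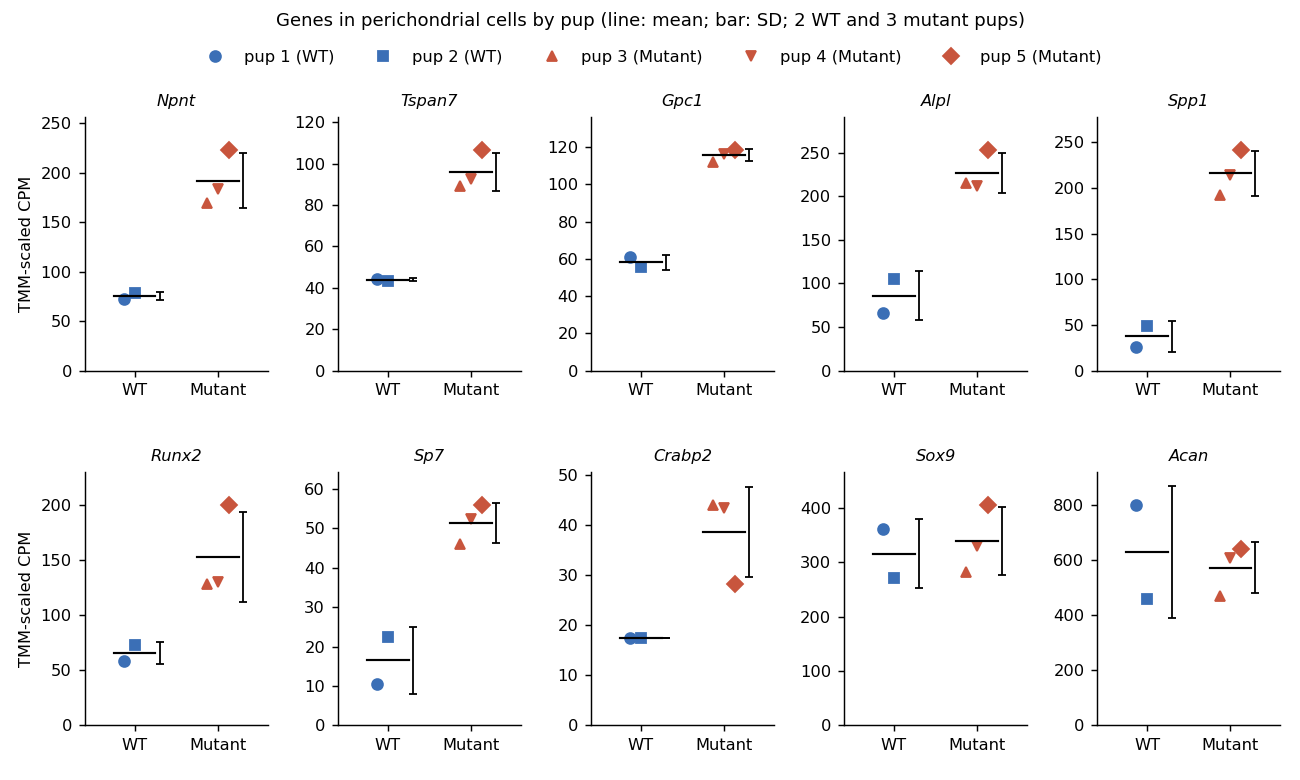
TMM-normalized CPM of 10 named genes in perichondrial members, on linear axes from 0, with 1 point per pup, a line at the mean and a bar for the SD (2 WT and 3 mutant pups). Npnt, Tspan7 and Gpc1 lie above both WT pups in all 3 mutant pups, and Sox9 and Acan overlap.

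The next 10 genes by unadjusted p did not pass, with adjusted p of 0.0895 to 0.119 in edgeR, and are given as values. All 10 passed in DESeq2 and in edgeR without filterByExpr, and Spp1, Tnn, Tnfsf11, Crabp1 and Alpl passed in edgeR on cells thinned to 3000 UMIs. They were Tnfsf11, Kremen1, Runx3, Crabp1, Alpl, Rab26os, Spp1, Stk17b, Tnn and Crabp2, all with a higher mean in mutant members. Tnfsf11, which encodes RANKL, the signal for osteoclast formation, was at 9.25 and 14.7 CPM in WT and 34.6, 37.1 and 28.3 CPM in mutant members. Spp1 was at 25.6 and 49.0 CPM in WT and 192, 214 and 242 CPM in mutant members, a log2 difference of 2.50 ± 0.29. Alpl was at 66.3 and 106 CPM and at 216, 212 and 253 CPM, a difference of 1.39. In both, the groups did not overlap. Tnn was at 271 and 290 CPM and at 714, 574 and 471 CPM. Runx3, a relative of Runx2, was at 7.75 and 14.2 CPM and at 31.9, 31.5 and 32.1 CPM, with the 3 mutant pups very close. Crabp1 and Crabp2 encode carriers of retinoic acid. Crabp1 was at 10.1 and 12.2 CPM in WT and 39.0, 26.5 and 47.5 CPM in mutant members, and Crabp2 at 17.4 and 17.5 CPM in WT and 44.0, 43.5 and 28.3 CPM in mutant members. Kremen1, a receptor for Dkk1 in Wnt signalling, was at 105 and 102 CPM and at 167, 166 and 175 CPM. All 3 mutant pups lay above both WT pups in 1495 genes (12.6%) and below both in 1553 (13.1%), the background against which such separation is read.

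Osteoblast lineage genes had the highest median difference among lists with at least 5 genes tested, although no gene of the list passed in edgeR. DESeq2 called 5 of 15 higher (Spp1, Alpl, Sp7, Runx2 and Dlx5) and 0 lower, against 45 of all 13964 genes higher. In thinned cells edgeR called 2 of 11 higher (Spp1 and Alpl), against 8 of all 10428. Without filterByExpr it called 8 of 16 higher, against 176 of all 22810. Of 15 tested, 14 had a higher mean in mutant members, with a median log2 difference of 1.02 against -0.02 over all genes. In members thinned to 3000 UMIs, which removes the lower depth of the mutant pups, the median was 0.60 over the 11 genes still tested. The medians are thus over different genes, and the part of depth in the change was not tested. At an unadjusted p under 0.05, 10 of 15 were higher and 0 lower, against 4.78% of all genes, and in 10 all mutant pups were above both WT pups, against 12.6%. Runx2 was at 58.3 and 72.6 CPM in WT and at 129, 130 and 200 CPM in mutant members (adjusted p = 0.237). Sp7 was at 10.5 and 22.5 CPM and at 45.9, 52.4 and 55.9 CPM (adjusted p = 0.26). Dlx5, a homeobox regulator of Runx2, differed by 1.02. Phex was the exception at -0.49. In cells thinned to 3000 UMIs, Alpl was detected in 6.06% and 9.46% of members in WT and 18.0%, 19.5% and 23.0% in mutant pups, and Sp7 in 1.18% and 3.41% and in 6.33%, 7.15% and 8.23%. Unthinned, Alpl was detected in 8.59% and 12.0% and in 22.2%, 21.1% and 23.8%. Ibsp, an osteoblast gene limited by the rule, was detected in 0.505% and 2.95% of WT members and 5.80%, 2.23% and 2.26% of mutant members, with overlap.

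The comparison was repeated without the members in which Alpl or Sp7 was detected. These genes themselves differed in mean between genotypes and belong to the osteoblast list, so a smaller difference in part follows from how the cells were removed, and the remaining members still held osteoblast transcripts such as Runx2. In members with no Alpl or Sp7 UMI, an alternative added after the data were seen, no gene passed in edgeR, with 325 genes at an unadjusted p under 0.05. The difference was then 0.83 for Npnt, 0.87 for Tspan7 and 0.28 for Gpc1.

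Tendon and ligament cells of the same pups were used to ask whether the differences were particular to members. In them 0 of 13687 genes (0%) passed between mutant and WT pups, with 787 at an unadjusted p under 0.05. The difference between the effects in the populations, tested with the pup as a block, passed in 0 of 13988 genes (0%), with 793 at an unadjusted p under 0.05. DESeq2 was not run on either. Gpc1 came closest of the called genes, with an effect of 0.99 in members and 0.01 in tendon cells and a difference of 0.99 ± 0.14 (edgeR adjusted p = 0.0978). Npnt had an effect of 0.45 in tendon cells and Tspan7 one of 0.77. Alpl had -0.10 and Spp1 -0.85 there. No effect was shown to be particular to the members.

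Cell cycle genes had a median difference of 0.37, and 19 of 20 had a higher mean in mutant members, with 8 higher and 0 lower at an unadjusted p under 0.05, against 4.78% and 3.22% of all genes, and 0 past the adjusted threshold in edgeR and in DESeq2. Without filterByExpr edgeR called 7 of 20 higher, against 176 of all 22810 genes. Rrm2, a subunit of ribonucleotide reductase, was at 30.8 and 28.5 CPM in WT and 44.8, 45.1 and 64.7 CPM in mutant members. The summed level of Mki67 overlapped, at 113 and 86.4 CPM and at 93.9, 96.8 and 110 CPM. At 3000 UMIs it was detected in 8.42% and 8.25% of WT members and 9.43%, 10.0% and 9.49% of mutant members, without overlap, and unthinned in 13.1% and 12.2% and in 13.6%, 12.8% and 13.1%, with overlap. At least 2 cell cycle UMIs were found in 21.0% and 18.2% of WT members and 22.2%, 22.4% and 22.8% of mutant members at 3000 UMIs. The difference was 2.86 percentage points with p = 0.1 in the 2-sided exact permutation test, the smallest p it can give. The thinned shares left out 0, 1, 45, 79 and 13 members below that depth, and without thinning the share was 42.5% in WT and 37.0% in mutant pups, where the depth of the cells differed. Mki67 was detected in 9.08% of all members and 33.1% of macrophages.

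Of 22 cartilage genes tested, 1 had all mutant pups above both WT pups and 1 had all below, against 12.6% and 13.1% of all genes. These were Matn4, a matrilin, at 10.1 and 11.4 CPM in WT and 14.4, 17.6 and 20.4 CPM in mutant members, and Cnmd, the gene of chondromodulin, at 77.9 and 67.8 CPM in WT and 47.5, 51.2 and 59.1 CPM in mutant members. At an unadjusted p under 0.05, 1 was higher and 2 lower, against 4.78% and 3.22% of all genes, and 0 passed the adjusted threshold in edgeR or DESeq2. Without filterByExpr edgeR called 1 of 23 lower, the collagen gene Col9a3, and 0 higher. Over all 22810 genes of that fit, 52 were lower and 176 higher. Sox9 was at 361 and 272 CPM in WT and at 282, 330 and 406 CPM in mutant members, with a log2 difference of 0.10 (95% interval -0.31 to 0.51). Acan, the gene of aggrecan, was at 799 and 459 CPM and at 467, 608 and 640 CPM, with -0.14 (-0.80 to 0.53). Col9a1 was at 255 and 168 CPM and at 168, 192 and 250 CPM, with -0.06 (-0.62 to 0.51). These intervals leave room for changes in either direction. Col11a1 had 0.27, Col9a2 -0.23 and Ucma -0.03. In all, 6 of 22 had a higher mean in mutant members and the median was -0.10. The Col2a1 limit of the rule alone removed 260 cells, and Col2a1 had a median r of 0.61 with Col9a1 among members. Cells rich in cartilage transcripts were thus in part left out by the rule, and these values describe only cells under that limit. Col9a1 had a UMI in 30.3% of members and 27.2% of macrophages and Ucma in 7.18% and 11.5% at 3000 UMIs, so neither was clearly above the macrophage share. Macrophages had no Col2a1 limit, so doublets with chondrocytes can raise their share, and the free RNA level of members is not known from it. Sox9 was in 40.1% and 14.0% and Acan in 59.2% and 26.6%.

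The calcineurin pathway, which calcium activates, held 2 of 13 genes with all mutant pups above both WT pups and 0 with all below, against 12.6% and 13.1% of all genes. Nfatc1, a calcineurin-dependent factor, was at 219 and 123 CPM in WT and 153, 207 and 180 CPM in mutant members, with a log2 difference of 0.08. Nfatc2 had 0.28 and Rcan1, an inhibitor of calcineurin that NFAT itself induces, had -0.07. In all, 9 of 13 calcineurin-NFAT genes had a higher mean in mutant members, with a median of 0.07 and 0 past the threshold in edgeR or DESeq2. Among 9 mechanosensitive channels and YAP targets, 7 had a higher mean, with a median of 0.19.

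The matrix lists that describe this tissue were centred near all genes. Fibrous perichondrium markers had a median of 0.10 (10 of 16 higher), collagens 0.01 (8 of 16), elastic fibre genes -0.06 (9 of 21), matricellular genes 0.10 (11 of 19), leucine-rich proteoglycans -0.14 (4 of 11) and collagen folding genes 0.02 (14 of 23), with 0 past the threshold in edgeR in each. DESeq2 called 1 gene of these lists, the matricellular gene Tnn, which edgeR also called in thinned cells. Without filterByExpr edgeR called 3 matricellular genes higher and 2 lower, 1 fibrous marker higher and 3 lower, and 1 collagen gene and 1 elastic fibre gene higher. Over all 22810 genes of that fit, 176 were higher and 52 lower. Eln was at 799 and 1310 CPM in WT and at 1143, 886 and 1496 CPM in mutant members, with a log2 difference of 0.15. Tendon genes had a median of -0.06 and progenitor markers one of 0.00. Of 18 progenitor markers 3 were higher and 0 lower at an unadjusted p under 0.05, against 4.78% and 3.22% of all genes. All mutant pups were above both WT pups in 4 and below in 0, against 12.6% and 13.1%. DESeq2 called Cd200 higher, against 45 of all 13964 genes. Without filterByExpr edgeR called Thy1, Cd200 and the tendon gene Clec11a higher.

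Of 28 Wnt genes 19 had a higher mean in mutant members, 9 of them and 0 of the lower at an unadjusted p under 0.05, against 4.78% and 3.22% of all genes, with a median of 0.14 and 0 past the adjusted threshold in edgeR. DESeq2 called 2 of 30 higher, Tcf7 and Fzd1, against 45 of all 13964 genes. Without filterByExpr edgeR called 6 of 31 higher, against 176 of all 22810 genes. Tcf7, a transcription factor of the pathway, was at 4.30 and 4.91 CPM in WT and 13.3, 10.8 and 13.5 CPM in mutant members. Wnt16 and Wnt10b, both ligands, had differences of 1.22 each, Fzd1, a receptor, 0.66 and Axin2, a feedback target, 0.51. The lowest value was that of Dkk2, a secreted modulator of the pathway, at -1.17, with 51.0 and 144 CPM in WT and 58.6, 51.0 and 17.9 CPM in mutant members and overlap. Of 11 hedgehog reception genes 5 were higher and 6 lower in mean, with 0 past the adjusted threshold in edgeR or DESeq2. At an unadjusted p under 0.05, 1 was higher and 3 lower. All mutant pups were above both WT pups in 1 and below both in 3, against 12.6% and 13.1% of all genes. Without filterByExpr edgeR called Ptch1 higher and Boc and Gas1 lower. Ptch1, the receptor, had 0.81, with 41.3 and 43.0 CPM in WT and 53.6, 70.5 and 102 CPM in mutant members. Its co-receptors Boc at -0.53, Gas1 at -0.40 and Cdon at -0.38 had lower means, and Gli1, a target like Ptch1, had 0.13. FGF genes had a median of -0.04 (4 of 16 higher) and TGF-beta and BMP genes one of 0.00 (20 of 40). At an unadjusted p under 0.05, 2 FGF genes were higher and 0 lower, and 4 TGF-beta and BMP genes were higher and 2 lower. None passed the adjusted threshold in edgeR. Fgfr2 was called higher in DESeq2 and in edgeR without filterByExpr, and Bmp5 in the latter only. Retinoid genes had a median of -0.05 (6 of 15 higher), with Crabp1, Crabp2 and the retinol receptor Stra6 higher at an unadjusted p under 0.05 in edgeR and past the adjusted threshold in DESeq2, and Aldh1a1 and Dhrs3 lower at the unadjusted p only.

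**Figure D5:**
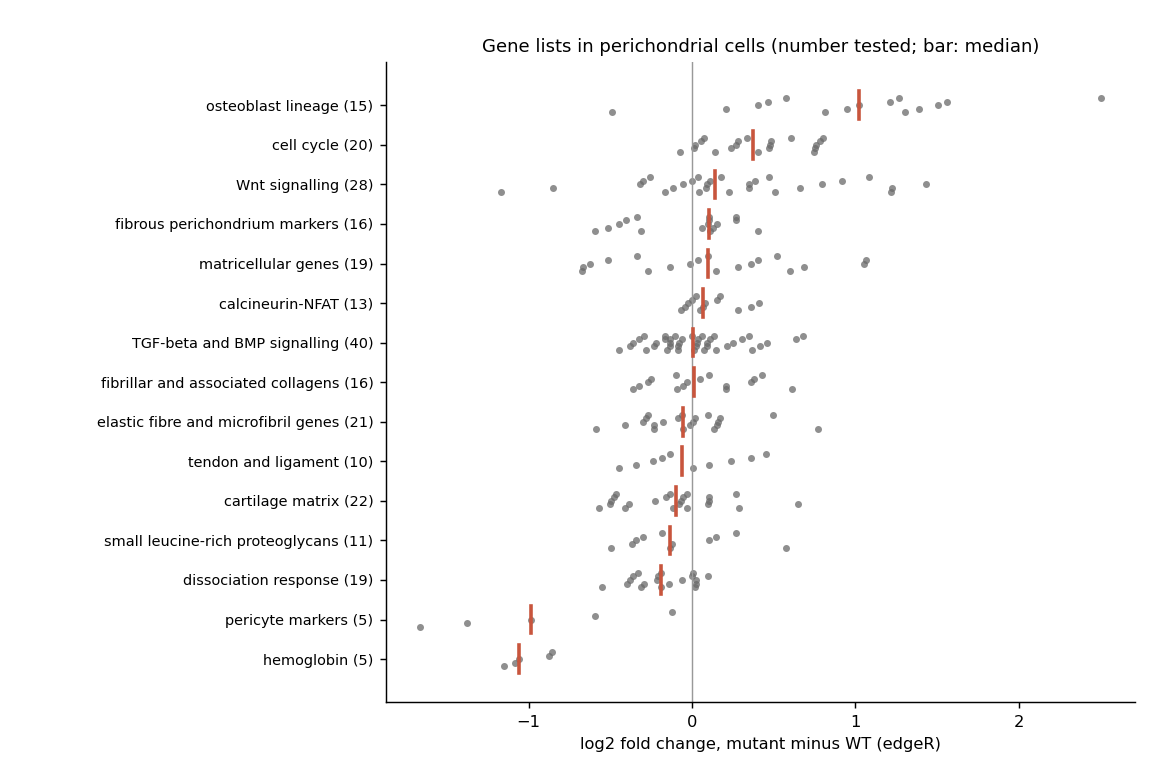
Log2 difference between mutant and WT members for each tested gene of 15 gene lists (points) with the list median (bar), on a linear axis. The osteoblast lineage list has a median of 1.02, while fibrous marker, collagen and elastic fibre lists lie within 0.10 of 0.

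Among lists of other cells, pericyte markers had a median of -0.99, with 0 of 5 higher in mean in mutant members, 2 of 5 lower at an unadjusted p under 0.05 and 3 of 5 with all mutant pups below both WT pups, against 3.22% and 13.1% of all genes. Without filterByExpr edgeR called 2 of 6 lower, Kcnj8 and Notch3, and 0 higher, against 52 lower of all 22810 genes. Hemoglobin genes had a median of -1.06, but their levels overlapped between genotypes and 0 of 5 had an unadjusted p under 0.05. Dissociation response genes had a median of -0.19 (6 of 19 higher). Of the macrophage list 2 genes were tested, and Fcer1g had 1.92 and Mrc1 -0.15. Contractile genes had a median of 0.26 over 6 tested. DESeq2 called 1 of 9 higher, Tpm1, against 45 of all 13964 genes. Without filterByExpr edgeR called 2 of 10 higher, Tpm1 and Tagln, against 176 of all 22810. The endothelial, muscle and Schwann cell lists had 2 tested genes each and the neutrophil list 0. The part of these in the differences above was not tested.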

How the data were processed

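Single cells of 5 pups were measured, 1 library each. The authors ran the BD Rhapsody pipeline and deposited its raw UMI count matrices. Its version was not given in the sources used here, and the submitters' processing notes name mm10. The members and gene lists were chosen with earlier results of these data known.

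Other cells were gated by k. Tendon and ligament cells had Tnmd k of at least 5, osteoblast lineage cells Ibsp k of at least 10 and superficial and synovial cells Prg4 k of at least 50, each with the members' remaining exclusions and Col1a1 k of at least 200. None of these gates had a limit on Postn, Col3a1 or Prrx1. Macrophages and endothelial cells were gated on Ptprc with C1qa and on Pecam1 with Cdh5, with no Col2a1 limit. No doublet caller was run, and leaving out members over 20000 UMIs was an alternative.

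Counts were summed per pup and tested with edgeR 4.0.16 (TMM, filterByExpr, robust quasi-likelihood, Benjamini-Hochberg) in R 4.3.3. Levels in CPM beside genotype tests are TMM-normalized, and others are scaled by all UMIs of the sum. Standard errors were the log2 difference over the square root of F, so intervals are approximate. Fits were tested on simulated data. DESeq2 1.42.0 was the other tool, and scipy 1.17.1, numpy 2.4.6 and pandas 2.3.3 in Python 3.11.15 gave the rest. Shares of cells are given per pup or over all members, and the SDs of shares are between pups. Shares over all members carry no measure of the spread between pups.

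Named genes were the rule's genes and markers, a set of cartilage, calcineurin, Trpv4 and sex-linked genes, all genes past the threshold with a mean of at least 20 CPM plus the 10 next by unadjusted p, the 10 largest in each direction per population (at least 50 CPM and the same sign in all pups), and the 20 most variable. Other list genes named were chosen after their values were seen. Alternatives covered tool, normalization, filter, mitochondrial limit (20%), gates, depth, Xist and left-out pups.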

Additional observations from a re-analysis of the deposited data

How the results depend on the processing

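No paired analysis was possible because no WT and mutant pups share a number that pairs them. The population comparisons had the pup as a block, and all 27 alternatives, that without the block included, left their counts within 1.5 times. The number of genes called between mutant and WT members was 3 and became 46 with DESeq2, 228 without filterByExpr, 7 with Xist as a term, 5 with the stricter gate, 8 with cells thinned to 3000 UMIs, 0 in members with no Alpl or Sp7 UMI (added after the data were seen), and 0 to 35 with 1 pup left out. Without mutant pup 1 or 2 it was 0, with 892 and 561 genes at an unadjusted p under 0.05. The cause was not tested. Npnt (1.63) and Tspan7 (1.32) missed the threshold with the stricter gate, and Gpc1 with the looser gate (0.78). With Xist as a term, where mutant pup 3 stands alone against the WT pups, Gpc1 had 1.02.

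The median of the osteoblast lineage list (1.02 over 15 genes tested) was 0.60 in thinned cells (11 genes) and 0.26 in members with no Alpl or Sp7 UMI (9 genes). With a pup left out it was 0.88 to 1.28. The median of the cell cycle list (0.37) was 0.20 to 0.58 with a pup left out. The difference in the members' share (-0.336 percentage points) was -2.36 to 1.69 with a pup left out, positive without WT pup 2 (1.69), mutant pup 2 (0.22) or mutant pup 3 (0.71). The cycling share difference (2.86 points) was -5.44 in unthinned cells (exact permutation p = 0.3).

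Small differences changed sign. With Xist as a term these were Col9a1 (0.25), Col9a2 (0.12), Acan (0.025) and Ucma (0.53). In thinned cells they were Ucma (0.086) and Trpv4 (-0.0024). With the stricter gate they were Sox9 (-0.043) and Nfatc1 (-0.11), and with the looser gate Trpv4 (-0.046). In members with no Alpl or Sp7 UMI they were Col9a1 (0.061), Rcan1 (0.10) and Trpv4 (-0.24). With 1 pup left out the ranges were -0.33 to 0.29 for Col9a1, -0.050 to 0.69 for Col11a1, -0.49 to 0.33 for Acan, -0.36 to 0.32 for Ucma, -0.092 to 0.33 for Sox9, -0.29 to 0.56 for Nfatc1, -0.20 to 0.10 for Rcan1, -0.32 to 0.41 for Trpv4 and -0.14 to 0.55 for Eln. None of these genes passed the threshold in the comparison of all 5 pups. Of the alternative values of named genes, 326 kept direction and side of the threshold, 13 lost and 44 gained significance and 29 reversed. Depth limits low genes such as Trpv4, and 2 WT pups limit every genotype comparison.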
